A study of Danio rerio with 12 samples.

Results

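The sites described here are a set of unmethylated CCCGGG sites of the zebrafish embryo genome, at which fewer than 10% of reads were methylated. Methylated and total reads were summed over all 12 libraries, and a site was kept if it had 240 summed reads or more and a summed level under 10%. The far part of chromosome 4 (from position 2.7e+07 on) was left out, as were sites more than 1000 bp from the next listed site. These conditions without the level gave 2395 qualifying sites, and 258 of them (10.8%) lay under 10%. They are 0.400% of the 64466 sites listed. Sites left out for their depth or spacing can be under 10% too, so this is no count of all unmethylated sites. Because the summed level chose these sites, their low level is a description and was not tested.

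The libraries came from pools of 20 zebrafish embryos (Danio rerio, wild type) at 72 hours post fertilisation. The groups were 4 pools without exposure, 4 pools kept in 0.1 mM sodium arsenite and 4 pools kept in 1 mM, with an exposure of 72 hours. Sodium arsenite is a soluble salt of inorganic arsenic, and the study asked whether it alters DNA methylation in the embryo. A pool of whole embryos mixes all cell types, so a level of a few percent may come from a few cells or from a few copies in many cells, and the 2 cannot be told apart.

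Methylation was read with digital restriction enzyme analysis of methylation (DREAM). SmaI first cuts CCCGGG where the central CpG is unmethylated, and XmaI then cuts the sites left over, so each read end records the state of 1 copy of 1 site. A level is the methylated share of a site's reads, in percent. In vertebrates most CpG dinucleotides carry 5-methylcytosine, which DNA methyltransferases keep up through cell division. The exceptions are short stretches rich in CpG, many of them at the starts of genes, which are bound by proteins that recognise unmethylated CpG and stay free of methylation in most tissues. Positions are given in the danRer7 build, per the file headers. Which genes or sequences lie at them was not analysed here.

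The libraries held 1425613 to 1822127 reads at listed sites, and the 258 sites took 19.7 to 21.5% of them in every library. Site depths differed between any 2 replicates by more than counting error (lowest chi-square 7.10 per degree of freedom), so no 2 libraries were counted as 1. Depths cannot show whether 2 libraries came from separate exposures. The spiked standard with the lowest methylation read 0.215 to 0.920% in control libraries, 0.285 to 0.496% at 0.1 mM, and 2.57%, 0.823%, 1.78% and 0.497% in the 1 mM libraries 1 to 4.

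Nearly all of the 258 sites were far below the 10% that defines them. Their median level was 0.109%, with quartiles at 0.0409% and 0.247%. The spiked standard with the lowest methylation read 0.215 to 2.57% over the 12 libraries, so this median lies below every reading of that standard. What part of so low a level is methylation was not tested. No methylated read at all was seen at 27 sites, 123 sites lay under 0.1%, and 229 (88.8%) lay under 1%. A further 19 sites lay at 1 to 5% and 10 at 5 to 10%. The range just above was thinly filled too, with 17 qualifying sites at 10 to 20% and 24 at 20 to 30%. The threshold of 10% therefore falls in a sparse stretch between the unmethylated sites and the many methylated ones.

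**Figure D1:**
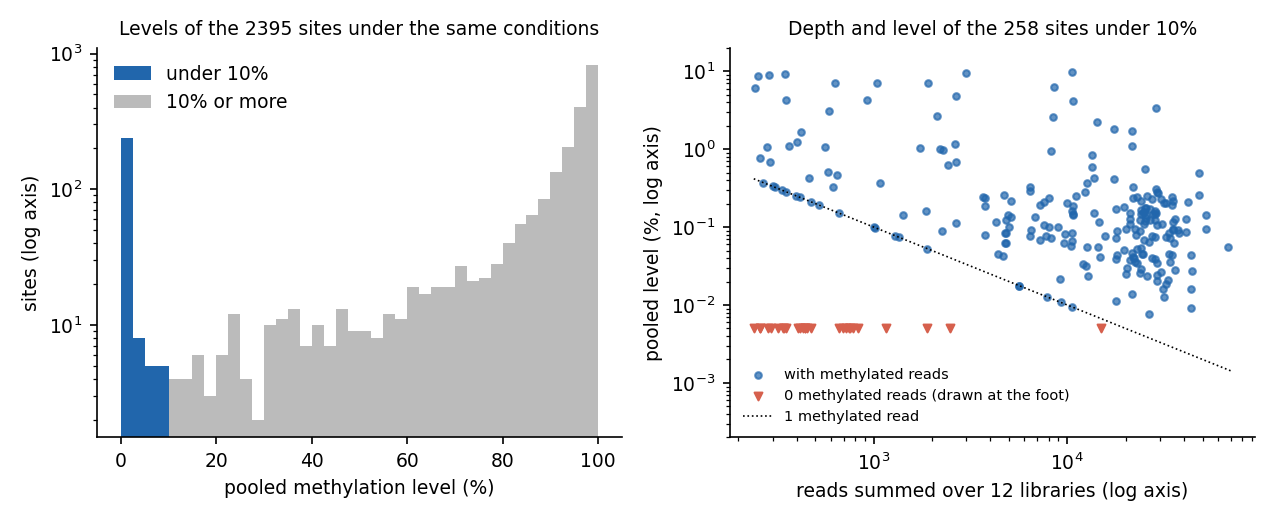
Left, number of qualifying sites (log axis) by summed methylation level in percent, with the 258 sites under 10% in blue and the 2137 others in grey. Right, level of each site under 10% (log axis, percent) against its summed reads (log axis), with the 27 sites without a methylated read drawn as triangles at 1 arbitrary height and a dotted line at the level of 1 methylated read. Most blue sites lie under 1%, and the few at 1 to 10% are mostly among the shallower ones.

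Sites just inside and just outside the threshold show what it separates. The 5 highest members were at chromosome 6 position 30116352 (9.71%), chromosome 25 position 36458609 (9.59%), chromosome 1 position 53124860 (9.14%), chromosome 21 position 17925206 (9.03%) and chromosome 25 position 5846000 (8.70%). The 5 lowest sites outside were at chromosome 10 position 769899 (11.5%), chromosome 21 position 16613428 (12.1%), chromosome 25 position 32975413 (12.1%), chromosome 8 position 11914826 (12.5%) and chromosome 23 position 23410099 (12.8%). The site on chromosome 6 was read 10578 times and varied little between libraries, at 9.40, 10.4, 9.72 and 10.1% in controls, 8.65, 9.67, 9.15 and 9.92% at 0.1 mM, and 10.9, 9.03, 8.84 and 11% at 1 mM. Its neighbour 162 bp away, position 30116514, was also a member, at 4.16%. The 3 groups overlapped at both sites.

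Few of the reads at members were methylated. Over all members 10078 of 3920032 reads were methylated, or 0.257%. The 29 sites at 1 to 10% held 5391 of these reads, 53.5% of the total. These sites were picked by their summed level, so a high share follows from that choice and was not tested. Among members with no methylated read, chromosome 11 position 37889613 was the deepest, with 0 of 14850 reads. Its approximate upper 95% limit was a level of 0.0202%. At chromosome 25 position 33732738, the next in depth, 0 of 2485 reads were methylated, with a limit of 0.121%. Reads carried no molecular identifiers, so these limits cover counting error only.

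The unmethylated sites were read more deeply than the others. Their median was 11592 summed reads (range 242 to 67456), against 2703 at the other qualifying sites. At least 10000 reads were reached at 140 members (54.3%), against 492 of the others (23.0%). The gap differed with the distance to the nearest listed CCCGGG on either side. Where that distance was 200 to 300 bp the median was 30442 reads at members and 6621.5 at sites of 90% or more. At under 100 bp it was 1034 at members and 1107 at sites of 90% or more. The nearest listed site need not be the other end of the fragment read. Chromosome 8 position 2751348, for example, had a listed site 55 bp away, but its 25165 reads nearly equalled the 25240 at 230 bp. The deepest member was chromosome 11 position 21820212, with 37 methylated reads of 67456 (0.0549%). Why depth differed with the level was not tested.

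At the shallow end, 34 members had fewer than 20 reads in at least 1 library. They had 242 to 662 summed reads, and 14 of them had no methylated read. The other 224 had 20 reads or more in each library, and 211 of these had at least 1 methylated read and could be tested site by site.

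Unmethylated sites lay beside other unmethylated sites. The rule used the reads of each site itself and its spacing, not the level of its neighbour. A neighbour under 10% with 240 reads or more meets the same rule, however, and is itself one of the 258 sites. The shares are therefore a description and were not tested. A neighbour within 1000 bp with 240 reads or more existed for 235 of the 258 sites, and 223 of these neighbours (94.9%, 95% Wilson interval 91.3 to 97.1%) were under 10% too. Only 9 (3.83%) were at 70% or more. Around the other qualifying sites 11 of 1425 neighbours (0.772%) were under 10%, and 1228 (86.2%) were at 70% or more. Most members and their neighbours are each other's nearest site and are counted from both ends. The 235 are thus not independent, and the interval is too narrow.

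The likeness held over the whole distance measured. For members, 16 of 17 neighbours within 100 bp were under 10%, as were 63 of 65 at 100 to 200 bp, 56 of 58 at 200 to 300 bp, 53 of 55 at 300 to 500 bp and 35 of 40 at 500 to 1000 bp. It was less complete for members that were themselves at 1 to 10%. Of 21 members at 1 to 10% with such a neighbour, 15 neighbours were under 10% and 4 were at 70% or more, while for members under 1% the count was 208 of 214 under 10%.

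**Figure D2:**
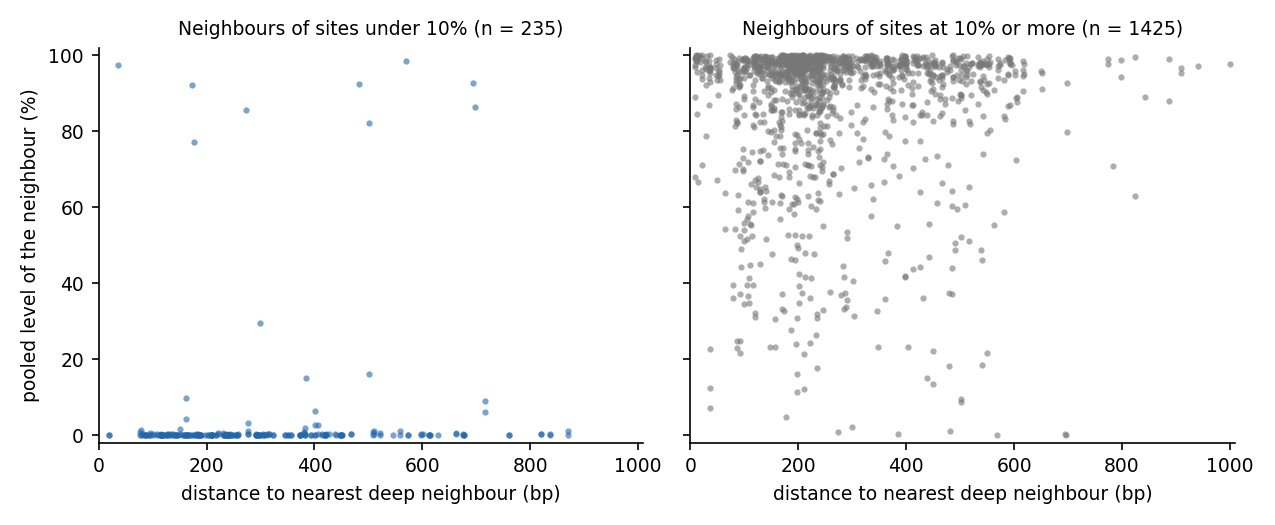
Summed level (percent) of the nearest neighbour with 240 reads or more, against its distance in bp, for the 235 sites under 10% (left) and the 1425 qualifying sites at 10% or more (right) that have one. On the left 223 neighbours lie under 10%, and on the right 1228 lie at 70% or more.

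Farther out, the share of unmethylated sites declined with distance from a member. Of listed sites with 10 summed reads or more, 132 of 142 (93.0%) within 250 bp of another member were under 10%. The share was 77 of 85 (90.6%) at 250 to 500 bp and 41 of 53 (77.4%) at 500 to 1000 bp. Beyond, it was 16 of 29 (55.2%) up to 4000 bp, 10 of 27 (37.0%) up to 8000 bp, 11 of 55 (20.0%) up to 16000 bp and 24 of 184 (13.0%) up to 50000 bp. Among all 25799 such sites that did not qualify, 6.47% were under 10%. Sites up to 1000 bp from a member include members themselves, and the farther ones were read less deeply, with median depths of 40 to 76 reads from 1000 to 50000 bp.

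With gaps of at most 1000 bp, the members formed 141 groups. Of these, 35 were single sites, 98 were pairs, 6 were triplets and 2 were larger. The largest was on chromosome 19, where 5 sites from position 30798577 to 30799623 spanned 1046 bp. Their summed levels were 0.0733%, 0.0354%, 0.0414%, 0.0254% and 0%, at 34088, 33912, 21762, 23641 and 1894 reads. The other was on chromosome 9, where 4 sites from position 52778730 to 52780472 spanned 1742 bp. There the level was 1.18% at the first position, then 0.244%, 0.0999% and 0% at the last. Both groups lay in stretches with no methylated qualifying site between their members.

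Members often came as the 2 ends of a short fragment. In 106 pairs each site was the other's nearest, a median of 241 bp apart, and in 88 of these (83.0%) the summed depths agreed within 10%. An example is chromosome 1 positions 8371899 and 8372064, 165 bp apart, with 24834 and 24902 reads and levels of 0.0685% and 0.108%. Such a pair gives 2 nearly equal samples of the same stretch of DNA, read at separate cuts.

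In 12 cases the neighbour was not unmethylated, and some of these borders were sharp. On chromosome 15, position 35196938 was at 0.935% of 8237 reads while position 35196664, 274 bp away, was at 85.6% of 8240 reads. The unmethylated site read 1.26, 0.688, 0.840 and 0.691% in controls, 0.623, 0.499, 0.258 and 1.04% at 0.1 mM, and 1.99, 1.31, 1.31 and 0.825% at 1 mM. Its methylated neighbour read 80.8 to 88.3% over the 12 libraries. The 2 sites thus stayed apart in every library.

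Depths were also almost equal across the border on chromosome 10, with 2207 reads at position 23282395 (0.997%) and 2200 reads at its neighbour 482 bp away (92.5%). The closest border was on chromosome 17, where position 26154016 was at 7.16% of 1034 reads and position 26153980, 36 bp away, at 97.5% of 651 reads. Its 12 libraries ranged from 4.04 to 13.5%, with the neighbour at 93.8% or more in each library that read it. Neighbours at intermediate levels were fewer. Position 3604978 on chromosome 22 was at 2.26% with a neighbour at 29.5%, and position 50572862 on chromosome 12 was at 0.282% with a neighbour at 15.1%.

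The partly methylated members had neighbours of several kinds. Chromosome 18 position 42670994 was at 6.25% of 8492 reads, and position 42671396, 402 bp away, at 2.57% of 8480 reads. By contrast, chromosome 16 position 44835900 was at 3.34% of 28804 reads and its neighbour 277 bp away at 0.305% of 28865 reads. Chromosome 3 position 43261690 was at 1.70% of 21701 reads and its neighbour 150 bp away at 0.235% of 21725 reads. In these last pairs the level differed between the ends at nearly equal depth. The 1.70% on chromosome 3 lies within the readings of the lowest spiked standard, and what part of it is methylation was not tested.

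Members were spread over all 25 chromosomes. Their share of qualifying sites was highest on chromosome 8, with 24 of 105 (22.9%, 95% Wilson interval 15.9 to 31.8%). Chromosome 19 had 21 of 114 (18.4%) and chromosome 5 had 20 of 110 (18.2%). Chromosome 12 had the lowest share, with 3 of 84 (3.57%, 1.22 to 9.98%), next to chromosome 15 with 4 of 101 (3.96%). The members of a chromosome fall into fewer groups (12 on chromosome 8), so these intervals are too narrow. In the far part of chromosome 4, none of the 108 sites with 240 reads was under 10%, and the lowest there was at 36.9%. Among 239 isolated sites with 240 reads, which the rule leaves out, 22 (9.21%) were under 10%, a share near that of the qualifying sites.

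Among qualifying sites, listed CCCGGG sites were no denser around members than around methylated sites. The nearest listed site lay at a median of 247 bp from members and 222 bp from sites of 90% or more. It lay over 500 bp away for 49 members (19.0%), against 8.92% of the sites of 90% or more.

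Averaged over the members, methylation did not separate exposed from control pools. The mean of all 258 sites was 0.523, 0.571, 0.684 and 1.00% in the 4 control libraries, 0.648, 0.622, 0.493 and 0.630% at 0.1 mM, and 0.686, 0.652, 0.615 and 0.553% at 1 mM. Control libraries thus averaged 0.695% ± 0.215, libraries of the 0.1 mM pools 0.598% ± 0.0708 and those of the 1 mM pools 0.626% ± 0.0568 (SD, n = 4 each). The difference from control was -0.0968 points at 0.1 mM and -0.0685 points at 1 mM, both smaller than the SD of the controls. All 3 groups overlapped. No p is given for these means, because the members were chosen with results of these libraries known.

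The highest of the 12 values, in control library 4, rested on 1 site. At chromosome 2 position 54814688 that library had 1 read, which was methylated, so the site counted as 100% in the mean. Without it the control mean was 0.600%, the 0.1 mM mean 0.581% and the 1 mM mean 0.622%. The difference between 1 mM and control then turned to 0.0214 points, again with overlapping groups. Over the 224 sites with 20 reads in each library the control mean was 0.481% ± 0.0224, the 0.1 mM mean 0.481% ± 0.0575 and the 1 mM mean 0.517% ± 0.0399 (SD, n = 4 each). On that measure the 1 mM libraries read 0.523, 0.508, 0.567 and 0.470%, and the controls 0.453, 0.473, 0.502 and 0.495%. Library 3 at 1 mM was the highest of all 12, and its lowest standard stood at 1.78%, above every control. Library 1 at 1 mM had the highest standard, at 2.57%, and read 0.523%. That was below library 1 at 0.1 mM, which read 0.538% with a standard of 0.285%. The standard's part in these values was not tested.

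Weighting each site by its reads gave means that differed by less than the SD of any group. The control libraries had a summed level of 0.263% ± 0.0284, the 0.1 mM libraries 0.248% ± 0.0267 and the 1 mM libraries 0.262% ± 0.0267 (SD, n = 4 each). Over the members, the number without a methylated read was 118 to 126 in control libraries, 115 to 139 at 0.1 mM and 94 to 136 at 1 mM. The number at 1% or more was 24 to 32, 24 to 32 and 27 to 36 in the same order of dose. These ranges overlap too.

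**Figure D3:**
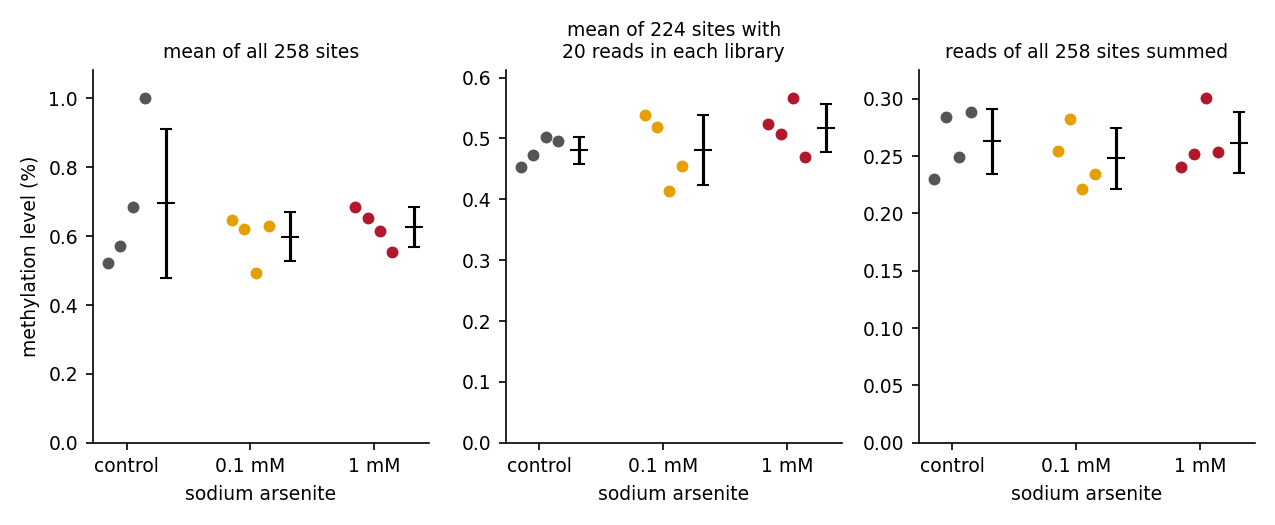
Methylation level of the members in percent, by sodium arsenite group, with 1 point for each of the 4 libraries and the mean ± SD drawn beside them. Panels show the mean of all 258 sites, the mean of the 224 sites with 20 reads in each library, and the level of the summed reads. The high control point in the left panel (1.00%) is not seen in the middle one, where controls lie between 0.453 and 0.502%.

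At single members the differences between groups were small in points, which follows from the low level that chose them. Between 1 mM and control, 213 of the 224 sites (95.1%) had means within 0.5 points of each other, and the differences ranged from -1.90 to 3.66 points. At 0.1 mM against control 206 sites (92.0%) were that close, and between 1 mM and 0.1 mM 209 (93.3%). The widest difference from control, 3.66 points at 1 mM and 4.36 points at 0.1 mM, was at chromosome 22 position 585681. It was read only 110 to 220 times per library, and its levels were 10.9, 4.32, 8.11 and 8.70% at 1 mM, against 3.75, 2.07, 9.55 and 2.04% in controls.

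No member passed the test in any comparison. Sites were tested with edgeR's quasi-likelihood test on methylated and unmethylated reads, with Benjamini-Hochberg adjustment over the 2228 sites of the whole table and a threshold of 0.05. It called 0 sites (0% of those tested) between 1 mM and control, 0 between 0.1 mM and control and 0 between the doses, and limma called 0 as well. The lowest adjusted p of a member by edgeR was 0.523 at 1 mM against control, 0.0853 at 0.1 mM against control and 0.594 between the doses.

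At an unadjusted edgeR p under 0.05 there were more members than in the table as a whole. In the comparison of 1 mM with control there were 28 of 211 members (13.3%), against a background of 4.89% of all tested sites. For 0.1 mM against control there were 25 (11.8%), against 5.07%, and between 1 mM and 0.1 mM 22 (10.4%), against 4.89%. The 28 split into 17 higher and 11 lower at 1 mM, where the background was 3.14% higher and 1.75% lower. The 25 split into 13 higher and 12 lower at 0.1 mM (background 2.56% and 2.51%). The 22 split into 12 higher and 10 lower at 1 mM than at 0.1 mM (background 3.14% and 1.75%). The first 2 comparisons share the control libraries.

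The excess was smaller with another test. Limma, which works on log2 odds, gave 15 members (7.11%) against 4.62% of all sites at 1 mM. For 0.1 mM against control it gave 11 (5.21%) against 5.07%, and between the doses 15 (7.11%) against 5.12%. When single libraries were left out, edgeR gave 18 to 29 members for 1 mM against control, 18 to 25 for 0.1 mM against control and 18 to 28 between the doses. Of the original 28, 25 and 22 members, 6, 3 and 2 were under 0.05 whichever library was left out. The same count was not made for the other tested sites. The groups did not overlap at 7 tested members (3.32%) for 1 mM against control, with a background of 1.97%. For 0.1 mM against control they did not at 3 (1.42%), with 2.24%, and between the doses at 6 (2.84%), with 2.47%.

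The 6 members with the smallest p between 1 mM and control, none of which passed, were at 5 separate stretches. At chromosome 6 position 4440116 the levels were 0.0721, 0.0758, 0.150 and 0.139% at 1 mM, against 0.0955, 0.866, 0.197 and 0.893% in controls (adjusted p = 0.523, edgeR). Only control libraries 2 and 4 stood high, with 21 of 2425 and 26 of 2912 reads methylated. Its neighbour 244 bp away, position 4440360, had 2 of 2435 and 1 of 2912 in the same libraries.

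At chromosome 8 position 2751348 the groups did not overlap. The levels were 0.209, 0.264, 0.767 and 0.248% at 1 mM, against 0.132, 0, 0.0935 and 0.134% in controls (adjusted p = 0.610, edgeR). Without 1 mM library 3 the difference was 0.150 points, against 0.282 points with it. Its neighbour 230 bp away, position 2751578, read 0.416, 0.846, 1.32 and 0.399% at 1 mM, against 0.612, 0.368, 0.465 and 0.403% in controls. Library 3 was the highest at both sites, and at the neighbour the groups overlapped.

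On chromosome 8, the 2 ends of the same 197 bp stretch were both among the 6, with differences in opposite directions. Position 56092585 read 0.128, 0.0817, 0 and 1.22% at 1 mM, against 0.0821, 0.0515, 0 and 0% in controls (adjusted p = 0.610, edgeR). Position 56092388 read 0, 0.123, 0.0402 and 0% at 1 mM, against 0.0830, 0.0517, 0 and 1.24% in controls (adjusted p = 0.610, edgeR). Each difference came from 1 library, which was 1 mM library 4 at the first site and control library 4 at the second. In control library 4, 31 of 2494 reads were methylated at the second site and 0 of 2517 at the first. Without these libraries the differences were 0.0366 points at the first site and -0.00406 points at the second.

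The remaining 2 had the same shape. Chromosome 5 position 14890555 read 0.0422, 0.0450, 1.00 and 0% at 1 mM, against 0, 0, 0.0427 and 0% in controls (adjusted p = 0.610, edgeR). Without 1 mM library 3 the difference was 0.0184 points, against 0.262 points with it. Chromosome 18 position 37192948 read 0.0910, 0.181, 0.107 and 1.19% at 1 mM, against 0.0595, 0.0668, 0.138 and 0.154% in controls (adjusted p = 0.611, edgeR). Here the difference was 0.0215 points without 1 mM library 4, against 0.287 points with it.

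**Figure D4:**
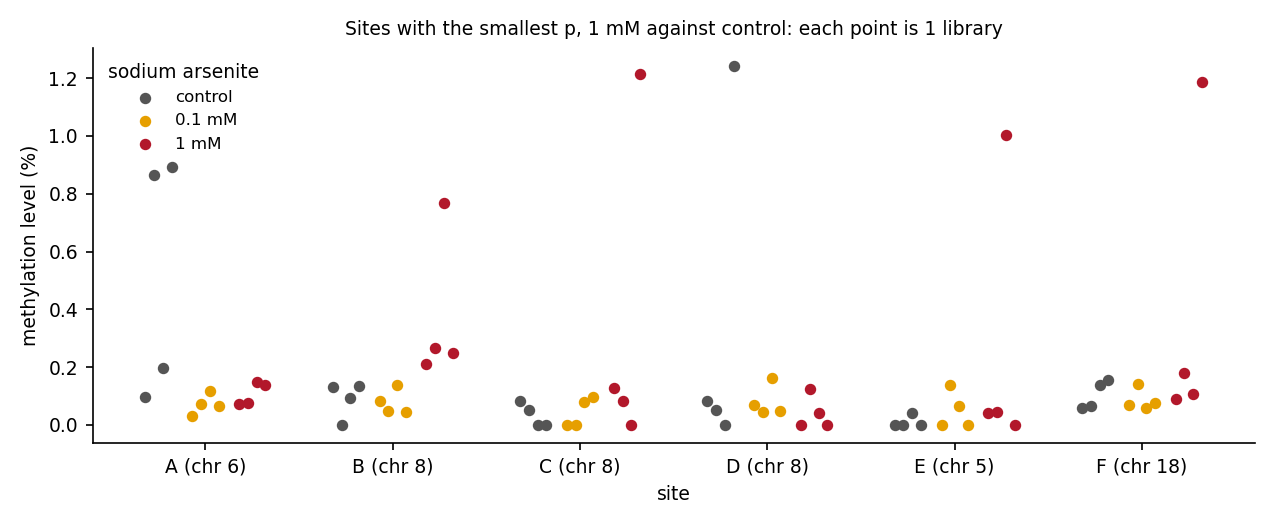
Methylation level in percent of the 6 members with the smallest p between 1 mM and control, with 1 point per library, grouped by control, 0.1 mM and 1 mM. A is chromosome 6 position 4440116, B chromosome 8 position 2751348, C chromosome 8 position 56092585, D chromosome 8 position 56092388, E chromosome 5 position 14890555 and F chromosome 18 position 37192948. At C, D, E and F 1 library near 1% stands above the other 11, at A 2 controls do, and at B the 4 libraries at 1 mM lie above the controls.

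The comparison of 0.1 mM with control had smallest p at chromosome 6 position 4440116, where the levels were 0.0298, 0.0717, 0.118 and 0.0636% at 0.1 mM (adjusted p = 0.0853, edgeR) against the control values above. At chromosome 21 position 2066571 they were 1.09, 0, 0.605 and 0.100% at 0.1 mM, against 0, 0.112, 0.0519 and 0.0927% in controls. Libraries 1 and 3 stood high, and the other 2 were within the controls. Single libraries carried chromosome 11 position 21819918 (1.81% in 0.1 mM library 2, 0.0510 points of difference without it), chromosome 2 position 29429149 (1.39% in the same library, 0.0389 points without it) and chromosome 8 position 26976240 (0.885% in control library 4, -0.00314 points without it).

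The sixth was chromosome 19 position 44640606, which had 8 methylated reads in all, all of them in controls. It read 0% in every library at 0.1 mM and at 1 mM, against 0.0515, 0.0578, 0.385 and 0% in controls. The adjusted p of these last 5 sites lay between 0.448 and 0.871 (edgeR). Between 1 mM and 0.1 mM the 6 smallest p included 5 of the sites above. The other was chromosome 5 position 25098015, at 0, 0, 0 and 0.0713% at 1 mM, against 0.123, 0.0736, 0.509 and 0.116% at 0.1 mM (adjusted p = 0.741, edgeR).

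Some members had groups that did not overlap without any library standing apart. They were picked for that after their values were seen, and none passed the test. Chromosome 16 position 44835900 read 2.99, 3.35, 2.18 and 3.20% at 1 mM, against 3.81, 4.75, 3.40 and 4.51% in controls (adjusted p = 0.611, edgeR). At 0.1 mM it read 3.10, 3.14, 2.71 and 3.34%, so all 8 exposed libraries lay below the 4 controls. Its differences from control were -1.19 points at 1 mM and -1.04 points at 0.1 mM (adjusted p = 0.904 at 0.1 mM, edgeR). Both comparisons share the controls. How many tested sites had all 8 exposed libraries on the same side of the controls was not counted.

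In the other direction, chromosome 19 position 19233503 read 0.249, 0.373, 0.362 and 0.346% at 1 mM, against 0.193, 0.185, 0.140 and 0.196% in controls (adjusted p = 0.942, edgeR). At 0.1 mM it read 0.238, 0.237, 0.279 and 0.245%, so all 8 exposed libraries lay above the controls. The site was read 3241 to 4613 times per library. Its neighbour 222 bp away, position 19233725, read 0.670, 0.449, 0.389 and 0.671% at 1 mM, against 0.337, 0.372, 0.585 and 0.484% in controls, and the groups overlapped there. Chromosome 12 position 50572862, beside the partly methylated site named above, read 0.106, 0, 0.216 and 0.118% at 1 mM, against 0.258, 0.281, 0.523 and 0.689% in controls (adjusted p = 0.942, edgeR).

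Single libraries with a raised level were a regular feature of the deep members. In a description chosen after seeing the data, a library stood apart if it had 10 methylated reads or more and at least 4 times the level of the other 11. Among the 158 members with 5000 summed reads or more and a level under 1%, this held for 24 values at 22 sites. The values ranged from 0.202 to 2.08% (median 0.997%), against a median of 0.100% in the other 11 libraries. They came from 10 of the 12 libraries, of which controls gave 9 values, 0.1 mM 7 and 1 mM 8. The same rule applied to unmethylated reads at the 152 sites of 99% or more with 5000 summed reads or more gave 2 values. Those sites had a median of 12063 reads, against 23844 at the members, so fewer were within reach of the count of 10. The rule also depends on the level in the other 11 libraries, and the sites were not matched for it.

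The raised level was seldom shared by the other end of the fragment. In 18 of the 24 cases the nearest neighbour was read at a depth within 10% of the site's own in that library. In 15 of these 18 it had 0 to 3 methylated reads, and the most it had was 26. The highest value was at chromosome 19 position 5296207, where control library 2 had 47 methylated reads of 2256 (2.08%). The other 11 libraries there had at most 6, and the neighbour 241 bp away had 2 of 2265 in the same library. At chromosome 4 position 11070915, libraries 3 at 0.1 mM and at 1 mM both stood apart, with 38 of 2704 and 30 of 2274 reads, while its neighbour had 1 of 2702 and 3 of 2282.

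**Figure D5:**
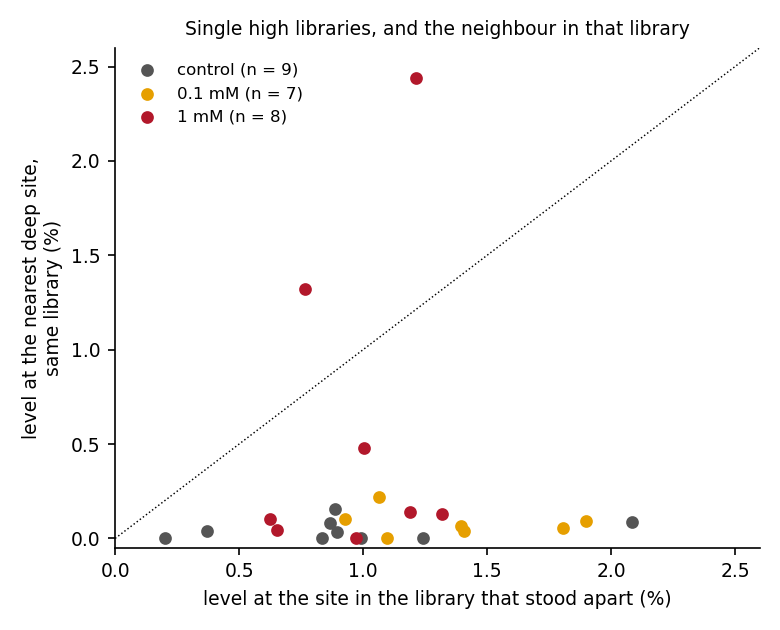
Methylation level in percent of the 24 single-library values that stood apart, on the horizontal axis, against the level of the nearest neighbour in the same library, on the vertical axis, coloured by group, with a dotted line where both are equal. The topmost point, at 2.44% on the vertical axis, is a neighbour with 1 methylated read of 41. Most points lie near the bottom, and for 15 of the 18 values with a neighbour of equal depth the neighbour had 0 to 3 methylated reads.

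Some of the members with a small p held such values. In the comparison of 1 mM with control, 13 of the 28 members with an unadjusted p under 0.05 had a library that stood apart in one of these 2 groups. The count was 12 of 25 for 0.1 mM against control and 9 of 22 between 1 mM and 0.1 mM. Among the 158 deep members, 22 sites had such a library in any group. That is another set of sites and of groups, so it is no reference for these counts. The share over all tested members was not counted. The raised reads enter both the small p and this count, so their meeting is partly built in. What raised these reads was not tested.

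The spread between replicates was close to counting error at most members but had a long tail. It was measured as the chi-square per degree of freedom of methylated reads among the 4 libraries of a group, which is near 1 where only counting varies. Its median was 1.18 over the 211 tested members. It was over 4 at 15 of the 86 members at 0.1 to 0.5% (17.4%), at 2 of 96 under 0.1% and at 0 of 20 at 1 to 10%. Over all 211 members it was over 4 at 17 (8.06%) and over 2 at 40 (19.0%), among them 26 of the 86 at 0.1 to 0.5%. At the other sites of 10 to 90% it was over 4 at 32 of 487 (6.57%), with a median of 1.58, and at the sites of 99% or more at 1 of 292 (0.342%). It was over 2 at 158 (32.4%) and 27 (9.25%) of these, in that order. A tail of this kind was thus also seen at sites of intermediate level. The classes use the summed level, which a raised library itself lifts, so the shares do not describe a class chosen independently. Depth differed as well, with a median of 21102 reads at 0.1 to 0.5%, 21652.5 under 0.1% and 2824 at 1 to 10%. It was 3521 at 10 to 90% and 5233 at 99% or more. An equal spread in level gives a larger chi-square at greater depth, and the classes were not matched for it.

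The authors' deposited levels differ from read shares in this range. The deposited level of the table of the whole series includes 196 members, all with 100 reads or more in each library. In each of 2688 values at the 224 members with 20 reads in each library, the deposited adjusted level was above the read share. The median was 0.190% for the adjusted level and 0.0571% for the share. In 1093 values (40.7%) no read was methylated, and the deposited level there was 0.01 to 2.92%. It follows from the 0.5 reads added to each kind and a correction factor of 1.198 to 1.324, which gave the deposited values to within 0.0145 points. A deposited level above 0 at these sites can thus stand for no methylated read.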

How the data were processed

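DNA from embryo pools (2.5 micrograms, 8 spiked standards, 12 PCR cycles, per the labels) was digested with SmaI and XmaI. The authors' deposited files give methylated and unmethylated reads per site as whole values, here called expected counts since the same column also holds a fractional correction factor. The authors' deposited raw and adjusted levels are in percent. Positions follow danRer7, as the submitters' processing notes state. An aligner is not given in the sources used here. Levels here are read shares. Sites with 20 reads in each of 12 libraries and at least 1 read of each kind were tested in edgeR 4.0.16 (R 4.3.3), with a coverage term per library and all 3 groups in one fit, and with limma 3.58.1 (pseudocount 1) as an alternative. The test was also run on simulated data. Their replicate spread was set in advance and not taken from the members, so the run does not show how the test behaves there. The naming rule took the 6 smallest p per comparison, the 5 nearest the threshold on each side and the 5 deepest. It also took the 5 deepest without a methylated read, the 5 longest runs, the 5 with the closest neighbour at 70% or more and the 5 with the largest SD. Not every site under this rule is named here. In place of the longest runs, the 2 largest groups with gaps of at most 1000 bp are given. All other sites named were chosen after their values were seen. The members and rules were chosen with earlier results of these data known. The labels speak of triplicate units and the design text of quadruplicates, so p-values measure the spread between pools, which may be partly technical. Of the value columns in the table of the whole series, 0 were left without a sample. Python 3.11.15, numpy 2.4.6, pandas 2.3.3 and matplotlib 3.10.9 were used.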

Additional observations from a re-analysis of the deposited data

Results flagged for a closer look

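Groups of 4 libraries were searched for a library far from the others with Dixon's ratio. At 40 sites taken by the naming rule and for 4 measures per library over the members, 132 groups were searched and 18 were found. Chance gives about 1 in 20 groups, but many of these sites were named for a small p or a large SD and some have no methylated read, so that share is no reference here. High libraries at 1 mM were 0.767% at chromosome 8 position 2751348 (others at most 0.264%), 1.22% at chromosome 8 position 56092585 (0.128%), 1.00% at chromosome 5 position 14890555 (0.0450%) and 1.19% at chromosome 18 position 37192948 (0.181%). At 0.1 mM they were 1.81% at chromosome 11 position 21819918 (0.198%), 1.39% at chromosome 2 position 29429149 (0.128%) and 0.509% at chromosome 5 position 25098015 (0.123%). In controls they were 1.24% at chromosome 8 position 56092388 (0.0830%), 0.885% at chromosome 8 position 26976240 (0.141%), 0.385% at chromosome 19 position 44640606 (0.0578%) and 0.202% at chromosome 11 position 21820212 (0.0664%).

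In 4 groups the outlying library had 1 or 2 methylated reads where the others had none. These were 2.44% at 0.1 mM at chromosome 15 position 7220266, 0.0427% in a control at chromosome 5 position 14890555, and 0.0713% at 1 mM and 0.123% in a control at chromosome 5 position 25098015. At chromosome 1 position 53124860 a control library read 0%, below the others at 15.4 to 18.5%. Outside the threshold, chromosome 23 position 23410099 had 1 library at 25.0% at 0.1 mM (others at most 13.8%) and 1 at 16.1% at 1 mM (at most 13.3%).

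The lowest spiked standard, which no comparison uses, stood at 2.57% and 1.78% in libraries 1 and 3 of the 1 mM group, with the highest control at 0.920%.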

How the results depend on the processing

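At 1 mM against control, the count of called members was 3 with the replicate number as a block (chromosome 5 position 14890555, chromosome 6 position 4440116 and chromosome 8 position 56092585, adjusted p = 0.0482 each, edgeR). Over the 16 alternatives, limma included, their adjusted p ran from 0.0482 to 0.982, from 0.0129 to 0.976 and from 0.0482 to 1. It was 0 to 1 when single libraries were left out. At 0.1 mM against control it was 1 with 10 reads in each library, with 240 summed reads, with the 2 groups alone and with the replicate block, and 0 to 1 when single libraries were left out. Each time that site was chromosome 6 position 4440116, whose adjusted p over the 16 alternatives, limma included, ran from 0.000568 to 0.932. Between the doses it was 0 in every alternative, leaving out single libraries included (0 to 0). Same-numbered libraries were no more alike than others: their deviations correlated at -0.0678 to 0.0408, those of others at -0.0968 to 0.0692. Much of this spread is counting error, so the check could miss a shared effect and does not settle whether the pools were paired. A call gained under the block is no sign of a paired design.

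The difference of mean levels, when single libraries were left out, was -0.126 to 0.0338 points for 1 mM against control, -0.154 to 0.00541 for 0.1 mM against control and -0.00663 to 0.0527 between the doses. With sites under 20% it was 0.120 between the doses. Members at an unadjusted p under 0.05 numbered 15 to 29, 11 to 27 and 14 to 28 over the alternatives, limma included, in the order of comparisons above. The means over sites with 20 reads in each library and without the site with 1 read were chosen after seeing the data. At members without a methylated read, depth set the approximate upper 95% limit of the level at 0.0202 to 1.24%.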
